A study of Homo sapiens with 2 samples.

Results

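CREB, a transcription factor that is activated by cyclic AMP and calcium signals, was mapped by chromatin immunoprecipitation and sequencing (ChIP-seq) in the NGP cell line, which was established from a human neuroblastoma. The study held 2 samples, 1 CREB ChIP library and 1 input library (DNA sequenced without immunoprecipitation), each without a replicate, from cells with no treatment named, grown with 20% fetal bovine serum and taken at 80 to 90% confluency. The deposited list of the ChIP library held 5285 peaks. The set described here comprised 7 genes whose peaks were among the strongest of that list: EEF1A1, PGK1, RNU6-1, RPPH1, PARP2, HBB and IGKC. A gene was assigned each peak that overlapped its span or lay within 1 kb of its transcription start site (TSS), which gave 6 peaks, since RPPH1 and PARP2 share 1. These genes were chosen by the fold enrichment and q value of their peaks and by the kind of gene. They are genes whose promoters serve in vectors or genes of another cell lineage, with PARP2 included for the shared peak. Peaks at other genes, such as CAMK1D and CAMKV, had higher folds than some of these 6. The folds, ranks and q values of the 7 genes are therefore given as a description, and no test was made on them.

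CREB binds the cyclic AMP response element, a palindrome spelled TGACGTCA, or one arm of it, TGACG, and most of its known sites lie close to gene starts. The 7 genes have little in common in function. EEF1A1 encodes translation elongation factor 1 alpha, PGK1 a glycolytic kinase, RNU6-1 the U6 RNA of the spliceosome, RPPH1 the RNA of ribonuclease P, and PARP2 a poly(ADP-ribose) polymerase of DNA repair. RNU6-1 and RPPH1 are transcribed by RNA polymerase III from promoters that lie upstream of the gene. The promoters of EEF1A1, PGK1, RNU6-1 (U6) and RPPH1 (H1) are widely used in expression and short hairpin RNA vectors. HBB, which encodes beta-globin, is expressed in red cell precursors, and IGKC, the constant region of the immunoglobulin kappa light chain, in B cells and plasma cells. The labels name no introduced DNA in these cells, and nothing measured here tests for any. The names given to the peaks in the deposited list carry CAMKV, the kinase-family gene in the study's title, beside CREB.

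The RefSeq promoter table (GRCh38.p14) held 3 of the 7 genes, EEF1A1, PGK1 and PARP2. The 250 bases before each TSS are printed below because they lie under the summit of the peak and can be read for the CREB element. Capitals mark TGACGTCA, TGACG or its reverse complement CGTCA, all searched on both strands, and TGACG is part of every TGACGTCA. The sequences are written 5′ to 3′ in the direction of transcription, for EEF1A1 from chr6:73521033-73521282 on the minus strand, for PGK1 from chrX:78103998-78104247 on the plus strand and for PARP2 from chr14:20343385-20343634 on the plus strand.
EEF1A1: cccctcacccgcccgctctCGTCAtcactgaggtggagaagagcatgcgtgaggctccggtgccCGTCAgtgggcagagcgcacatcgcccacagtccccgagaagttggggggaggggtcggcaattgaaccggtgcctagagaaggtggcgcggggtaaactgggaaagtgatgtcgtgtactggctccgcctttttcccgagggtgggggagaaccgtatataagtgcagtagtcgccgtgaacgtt
PGK1: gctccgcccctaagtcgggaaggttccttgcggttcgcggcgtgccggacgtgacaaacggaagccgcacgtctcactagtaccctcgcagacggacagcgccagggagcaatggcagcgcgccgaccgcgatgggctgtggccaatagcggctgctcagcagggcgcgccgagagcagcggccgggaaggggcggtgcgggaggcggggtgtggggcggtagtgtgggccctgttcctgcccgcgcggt
PARP2: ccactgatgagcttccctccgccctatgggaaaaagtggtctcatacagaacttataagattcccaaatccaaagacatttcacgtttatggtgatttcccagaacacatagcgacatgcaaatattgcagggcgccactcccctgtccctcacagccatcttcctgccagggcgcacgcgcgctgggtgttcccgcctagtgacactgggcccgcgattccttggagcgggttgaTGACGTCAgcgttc

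The PARP2 window also holds the sequence just upstream of RPPH1, read in the opposite direction, and a short stretch of RPPH1 itself. This window held a full TGACGTCA at 14 to 7 bases before the PARP2 TSS. That element lay 29 bp from the summit of the shared peak. The EEF1A1 window held no full element and 2 copies of CGTCA. The copy at 186 to 182 bases before the TSS lay inside the peak, 99 bp from the summit, while the copy at 231 to 227 bases lay outside the upstream edge of the peak, 144 bp from the summit. The PGK1 window held neither the full element nor the shorter one, although the whole window lay inside the peak. These windows covered 223 bp of the 280 bp EEF1A1 peak, 250 bp of the 532 bp PGK1 peak and 216 bp of the 241 bp shared peak, and the rest was not searched.

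The frequency of these letters elsewhere gives the scale. Of 34961 RefSeq promoters on chromosomes 1 to 22 and X, 577 (1.65%) held TGACGTCA and 7403 (21.2%) held TGACG on either strand in the same 250 bases. Of the 170 promoters with a peak summit in those bases, 59 (34.7%) held TGACGTCA and 144 (84.7%) held TGACG. The shared RPPH1 and PARP2 peak thus lay at a promoter with the full element, EEF1A1 at one with the short element alone, and PGK1 at one with neither. Counted by peak and without the 3 peaks at these genes, 124 promoter peaks remained, 47 of them (37.9%) with TGACGTCA, and in 32 of the 47 the centre of the element was within 50 bp of the summit. Their median fold was 6.08, against 6.16 for the 77 peaks without the full element in the window. The highest fold was 18.4 with the element and 15.2 without it. The peaks at EEF1A1 (634), PGK1 (47.1) and PARP2 (23.5) all exceeded these values. They were chosen for a high fold, so nothing is read from this.

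**Figure D1:**
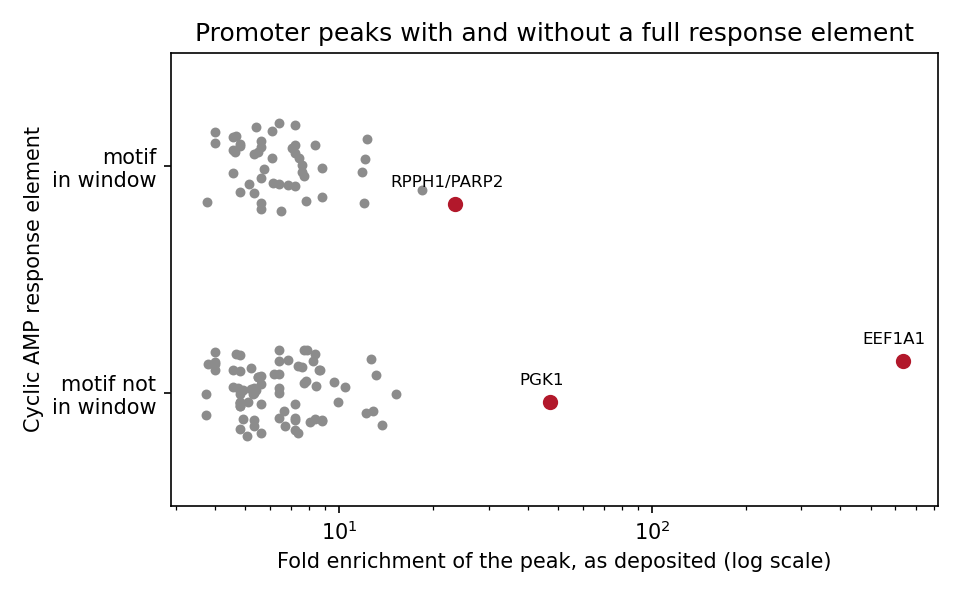
Fold enrichment as deposited (horizontal, log scale) of each peak with its summit in the 250 bases before a RefSeq TSS, split by whether a full cyclic AMP response element was found in that window. Each point is 1 peak, spread vertically for visibility, with the peaks at EEF1A1, PGK1 and RPPH1/PARP2 in red. The 3 red points, chosen for a high fold, lie to the right of all other promoter peaks, whose highest fold was 18.4.

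Other promoter motifs were searched in the same way. GGGCGG, the core of the Sp1 site, was found 3 times in the PGK1 window and once each in the EEF1A1 and PARP2 windows, and 42.7% of all promoters and 58.8% of the 170 with a summit held it on either strand. CCAAT was found once, in the PGK1 window, against 32.0% of all promoters and 42.9% of those with a summit. ATTTGCAT, the octamer bound by POU-family factors such as OCT1, was found once, in the PARP2 window on the strand of RPPH1, 134 to 127 bases before the PARP2 TSS and 84 bp from the summit. This octamer was present in 1.63% of all promoters and in 4 of the 170 with a summit. TATAAA was found in none of the 3 windows, against 10.7% of all promoters and 2.94% of those with a summit. Only these exact letters were searched, so similar ones were not counted, such as TATATAAG in the EEF1A1 window and TTATAAG in the PARP2 window. The windows had a GC content of 61.6% at EEF1A1, 71.2% at PGK1 and 54.4% at PARP2, on both sides of the median of 58.4% over all promoters.

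At the protein-coding genes EEF1A1, PGK1 and PARP2 the peak lay over the gene start. The EEF1A1 peak (chr6:73520976-73521255) ran from 223 bp upstream to 56 bp downstream of the TSS at 73521032, with the summit 83 bp upstream, in the middle of the peak. It covered 57 bp of a gene of 5283 bp. Its fold was 634, its −log10 q 2484, and it ranked 1 of the list by fold, by q and by fragments at the summit. From the fold and the Poisson p of the peak caller, 833 fragments (95% Poisson interval 777 to 892) were recovered at this summit over an expected background of 0.316. The fold was 2.81 times that of the next peak, at IGKC, and 121 times the median of the list, 5.24.

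The PGK1 peak (chrX:78103809-78104340) was wider, from 439 bp upstream to 92 bp downstream of the TSS at 78104248, with the summit 156 bp upstream. Its fold was 47.1, rank 12 by fold and 124 by fragments, with a −log10 q of 111 and 61 fragments (46.7 to 78.4) over a background of 0.316. The shared peak of RPPH1 and PARP2 (chr14:20343419-20343659) was the narrowest and weakest of the 6, with a fold of 23.5, rank 21, a −log10 q of 43.9 and 29 fragments (19.4 to 41.6) over a background of 0.277. By −log10 q it ranked 67 and by fragments 268, because other peaks have more fragments over a higher background. The peaks next to it in rank had folds of 26.3 and 23.1.

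RPPH1 and PARP2 are transcribed away from each other, from starts 224 bp apart. Measured from RPPH1, the peak ran from 248 to 8 bp upstream of the TSS at 20343411 and included none of the transcribed RNA. Measured from PARP2, it ran from 216 bp upstream to 24 bp downstream of the TSS at 20343635. The summit was 43 bp upstream of PARP2 and 181 bp upstream of RPPH1. A peak in so short an interval cannot be assigned to 1 of the 2 genes by position.

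RNU6-1 carried a peak (chr15:67840029-67840324) that ranked 3 of the list by fold and by q, and 14 by fragments. Its fold was 159 and its −log10 q 493, with 208 fragments (181 to 238) over a background of 0.316. The peak overlapped 17 bp of the 107 bp gene at the end with the higher coordinate, 67840045, and extended 279 bp beyond it, with the summit 115 bp outside the gene. The gene's strand was not given in the tables used here. Of this peak 5.74% lay over the gene, against 20.4% at EEF1A1, 17.5% at PGK1, 10.4% at PARP2 and none at RPPH1, so that at all 5 genes most of the peak lay outside the annotated gene.

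**Figure D2:**
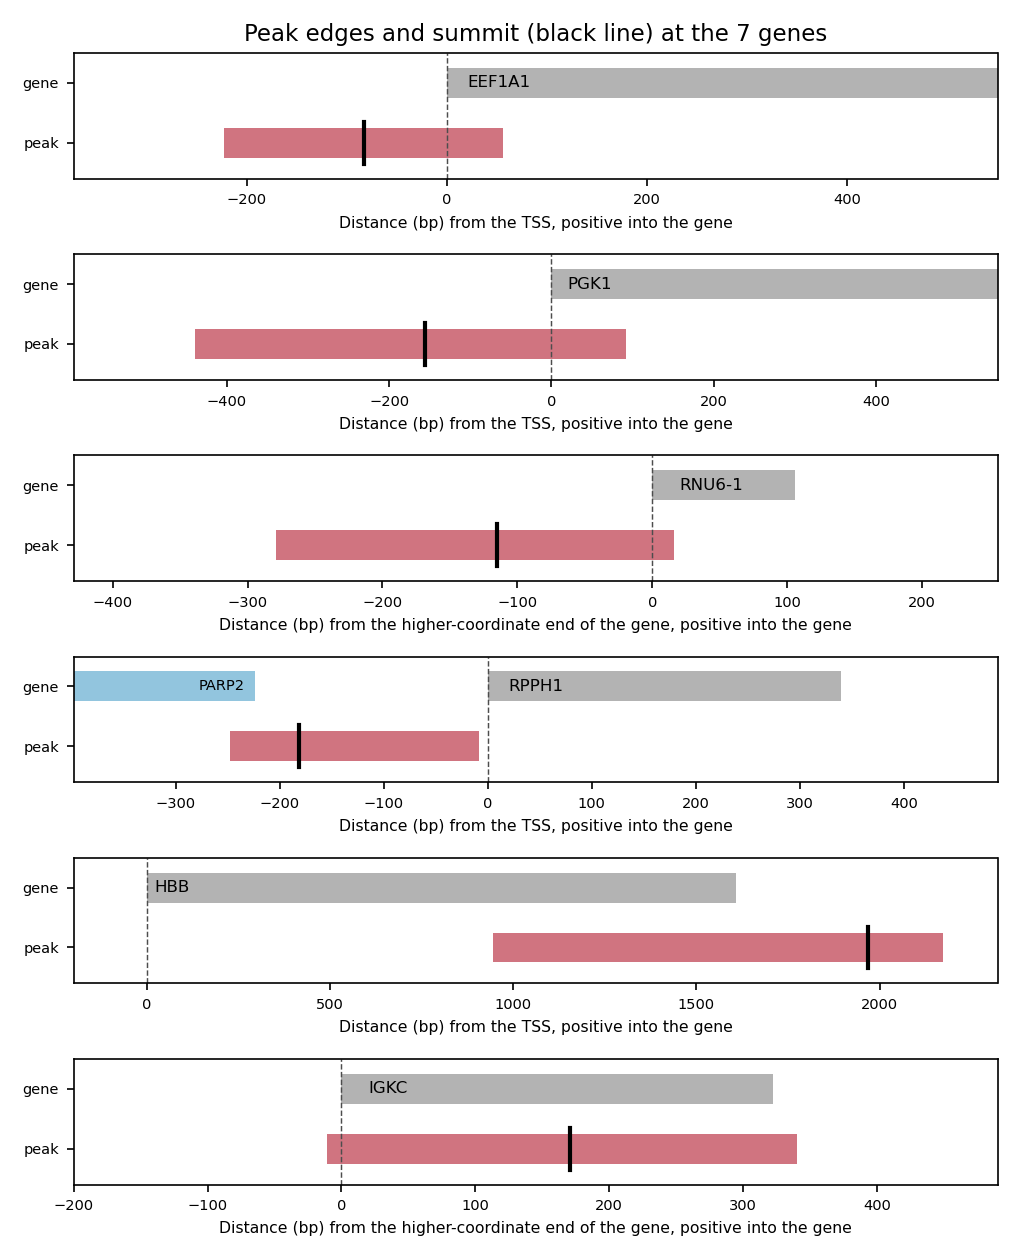
Position of each peak (red, summit as a black line) against the annotated gene (grey, with PARP2 in blue) in bp from the TSS, or from the higher-coordinate end for RNU6-1 and IGKC, whose strand was not given. The bars of EEF1A1, PGK1 and PARP2 run past the panel edge. The peaks at EEF1A1, PGK1, RNU6-1 and RPPH1/PARP2 sit at gene ends, that at IGKC covers the gene, and that at HBB lies over and beyond the end opposite the TSS.

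The peaks at IGKC and HBB lay elsewhere in the gene. The IGKC peak (chr2:88857343-88857694) covered all 323 bp of the annotated constant region and reached only 18 bp and 11 bp past its ends. Of the 352 bp of the peak, 91.8% lay in the constant region, and the summit was 151 bp from one end and 171 bp from the other. The fold was 226, rank 2 by fold and 7 by fragments, with a −log10 q of 749 and 296 fragments (263 to 332) over a background of 0.316. The only other annotation given this peak by the same rule was IGK, the kappa locus as a whole.

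The HBB peak (chr11:5224899-5226127) was the widest of the 6, at 1229 bp. It began 944 bp downstream of the TSS at 5227071, covered the last 664 bp of the 1608 bp gene (41.3%) and continued 565 bp past the gene's end. Its summit lay outside the gene, 361 bp beyond that end and 1968 bp from the TSS, at 16.7% of the peak's width from its lower edge. No peak was assigned to the HBB promoter. With a fold of 56.2, rank 9 by fold and 116 by fragments, and a −log10 q of 137, the HBB summit held 69 fragments (53.7 to 87.3) over a background of 0.246. Exon boundaries were not used here, so the part of HBB under the peak is given only by distance.

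The order of the 6 peaks by fragments was EEF1A1, IGKC, RNU6-1, HBB, PGK1 and RPPH1/PARP2. The counting intervals of EEF1A1, IGKC and RNU6-1 did not overlap any other of the 6, while those of HBB and PGK1 overlapped each other. The interval of RPPH1/PARP2 lay below that of PGK1. These intervals cover counting error only: the labels name no molecular identifiers, and there was 1 ChIP library.

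Background differed little among the 6 summits, from 0.246 to 0.316 fragments, against a list median of 0.316. The value 0.246 was the commonest background of the list, at 1657 peaks, and 1001 peaks had a background within 0.001 of that at EEF1A1. The lowest background of the list was 0.234, so the values at the 6 summits lay close to the lowest possible in this list. Fold is divided by the background, so the choice of genes by fold bears on this measure and nothing is read from it. Other strong peaks had a higher background, up to 1.90 among those of fold 20 or more. Among 72 peaks with 100 or more fragments, the background was under 0.4 at 6. Of these 6, 3 were the peaks at EEF1A1, IGKC and RNU6-1, and 3 lay within CAMKV and CAMK1D, which encode members of the calcium/calmodulin kinase family. Many fragments over a low background give a high fold, so this count repeats the choice by fold and nothing is read from it.

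**Figure D3:**
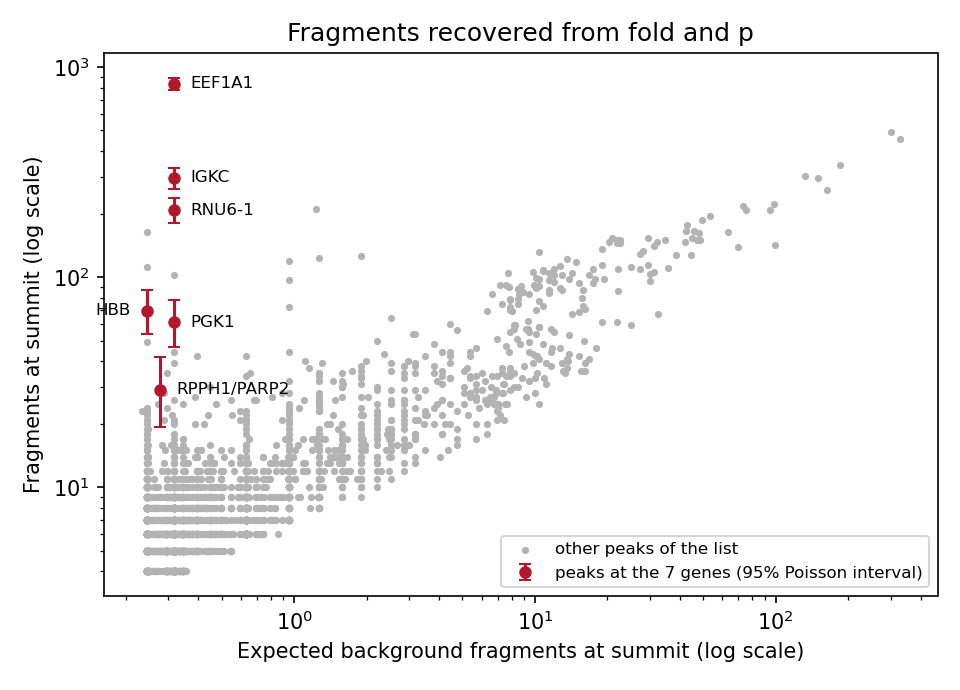
Fragments at the summit against the expected background (both log scales) for every peak of the list, as recovered from the deposited fold and p. Red points are the peaks at the 7 genes with 95% Poisson intervals. The peaks at EEF1A1, IGKC and RNU6-1, chosen for a high fold, stand above all peaks of like background, with 833, 296 and 208 fragments.

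The peaks stood alone on their chromosomes over long distances. Widths were 241, 280, 296, 352, 532 and 1229 bp at RPPH1/PARP2, EEF1A1, RNU6-1, IGKC, PGK1 and HBB, with a median of 324 bp, against 236 bp over the list and 411 bp over the other 24 peaks of fold 20 or more. None of the 6 had another peak within 100 kb. The nearest one was 173 kb away at EEF1A1, 206 kb at RNU6-1, 364 kb at IGKC, 965 kb at RPPH1/PARP2, 1427 kb at HBB and 3049 kb at PGK1, and its fold was at most 12.1. Over the whole list 72.0% of peaks had another within 100 kb, and outside 1 Mb windows with 10 or more peaks 22.3% did. Of the other 24 peaks of fold 20 or more, 9 had one, among them both strong CAMKV peaks, which lay 452 bp apart. With 6 peaks, 0 of 6 is too few to call these peaks more isolated than other scattered peaks.

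Strong peaks were rare in the list. A fold of 20 or more was reached by 30 peaks (0.568% of the list), 6 of them at the 7 genes. Of the other 24, 5 lay off chromosomes 1 to 22 and X, 3 in windows of 1 Mb with 10 or more peaks, and 16 elsewhere, of which 9 had no gene by the same rule. Among the other strong peaks were 1 in CAMK1D, with a fold of 132 and 164 fragments (140 to 191), and 2 in CAMKV, with folds of 90.7 and 79.0 and 112 (92.2 to 135) and 103 (84.1 to 125) fragments. Between them in fold stood a peak near an end of chromosome 5 (fold 94.8, 211 fragments, background 1.24). The CAMK1D and CAMKV peaks lay inside the genes, 412 kb from the CAMK1D TSS and 9131 and 7796 bp from the CAMKV TSS.

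**Figure D4:**
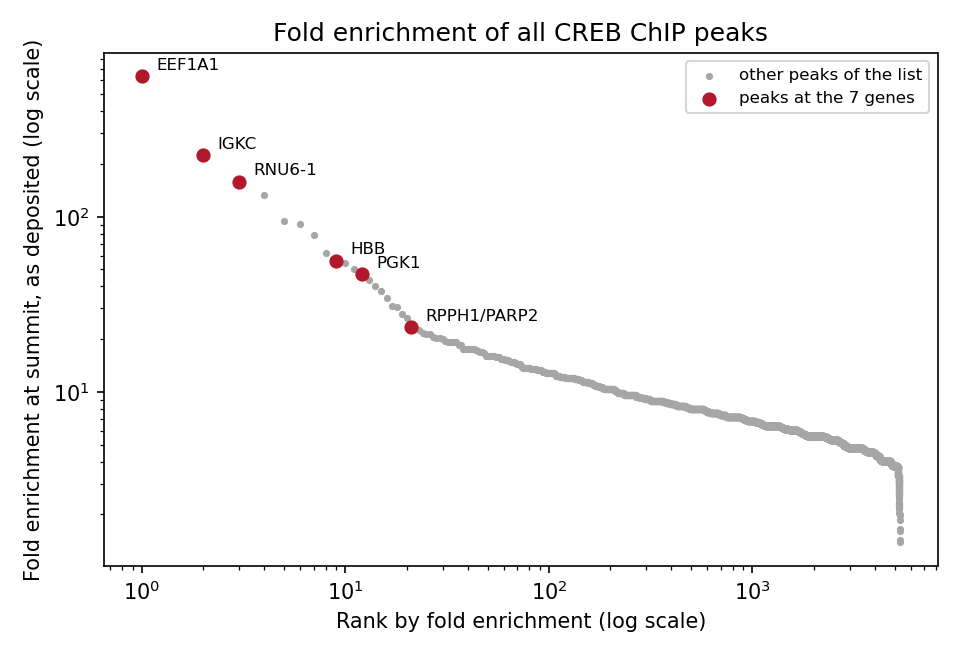
Fold enrichment as deposited against rank for all 5285 peaks, both on log scales, with the peaks at the 7 genes in red. They hold ranks 1, 2, 3, 9, 12 and 21, and fold falls from 634 at EEF1A1 to 23.5 at RPPH1/PARP2.

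Across the genome, 1425 of 59098 annotated genes (2.41%) had a peak by the rule used for the 7 genes, as did 4.59% of protein-coding genes. A peak of fold 20 or more was found at 17 genes (0.0288%), and at 10 protein-coding genes (0.0501%). The 7 genes were chosen for having such peaks, so nothing is read from their own count. Related genes were examined in 12 lists with 110 distinct genes, chosen with earlier results of these data known, so their counts are a description. Of these genes, 5 (UBB, FTH1, RNY1, GAPDH and PAX5) had a peak.

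Among 9 other genes whose promoters or close relatives serve in mammalian vectors, 2 had a peak, which in neither reached a fold of 20. UBB encodes polyubiquitin, and its peak lay inside the gene and not at its start. This peak had a fold of 14.9 and 28 fragments (18.6 to 40.5) over a background of 0.949, 1461 bp downstream of the TSS. The coding sequence of UBB consists of near-identical repeats, so the assignment of reads within it is uncertain. FTH1, the ferritin heavy chain gene, had a peak of fold 4.82, with 5 fragments (1.62 to 11.7) and its summit 129 bp into the gene. ACTB, FTL, HSPA5, HSP90B1, SYN1, CAMK2A and RN7SK had none.

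Of 11 other RNA polymerase III genes with upstream promoters, RNY1, which encodes a Y RNA, had a peak, with a fold of 5.52 and 6 fragments (2.20 to 13.1) and its summit 616 bp downstream of the TSS, past the end of the 113 bp gene. RNU6-2, RNU6-7, RNU6-8 and RNU6-9, which also encode U6 RNA, had no peak. Over all genes annotated as small nuclear RNA, 7 of 154 (4.55%) had a peak, against 2.41% of all genes. The 7 include RNU6-1, chosen for its peak, so nothing is read from this share. After RNU6-1 the strongest were RNU1-4 and RNU1-3, copies of the U1 RNA gene, with folds of 10.9 and 10.4. The rest were SNAR-A9, SNAR-A8, SNAR-A1 and LOC124904138, with folds of at most 5.54. Of 1269 U6 pseudogenes, none was overlapped by a peak, and 3 had one within 1 kb, with a fold of at most 3.96. The U6 copies share the transcribed sequence, while 279 bp of the 296 bp RNU6-1 peak lay outside it.

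Among the relatives of EEF1A1, none of 10 other translation elongation factor genes had a peak, EEF1A2 included. Of 49 annotated EEF1A1 pseudogenes, which derive from the spliced RNA, 2 were overlapped by a peak, against 0.592% of all genes RefSeq types as pseudogenes that had a peak by the rule. EEF1A1P5 had a fold of 10.7 with 14 fragments (7.65 to 23.5), over 1442 bp, and EEF1A1P6 a fold of 7.18 with 13 fragments (6.92 to 22.2). Both peaks lay wholly within the pseudogene, while the EEF1A1 peak covered only 57 bp of its gene. How multiply mapped reads were handled was not given, so the assignment of reads to such copies is uncertain. With 2 pseudogenes, nothing is read from the difference in share. Of 17 other glycolytic genes, GAPDH had a peak of fold 5.32 with 6 fragments (2.20 to 13.1), 3314 bp into the gene. PGK2 and both annotated PGK1 pseudogenes had none. None of the 10 genes for ribonuclease P proteins, which assemble with the RPPH1 RNA, had a peak, nor did any of 6 genes that act with PARP2 in poly(ADP-ribose) repair, PARP1 among them.

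The genes that share a lineage with HBB and IGKC were mostly without peaks. None of the 9 other globin genes and none of 7 erythroid marker genes, GATA1 and KLF1 among them, had one. None of the 13 other immunoglobulin constant genes and none of the 5 kappa joining segments next to IGKC had one. Of 8 markers of B cells and plasma cells, PAX5 had a peak inside the gene, 69.8 kb from its TSS, with a fold of 5.20 and 6 fragments (2.20 to 13.1). The 6 adrenergic neuroblastoma markers, HAND2 and GATA3 among them, had no peak either. At 2.41% to 4.59% of genes with a peak, lists this short are most often empty, so an empty list says little. A ChIP peak list measures no expression and cannot check the identity of the cells.

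The authors' deposited table of peaks within 50 kb of a TSS carried these peaks into the list of possible target genes. It named 5 of the 7 genes, leaving out RNU6-1 and IGKC, and paired the 6 peaks with 21 of its 2495 symbols. The EEF1A1 peak was paired with EEF1A1 alone, and the PGK1 peak with PGK1 and TAF9B, a TFIID subunit gene. The peak at RNU6-1 was paired with SKOR1, a transcriptional corepressor gene, and LOC101929076, and the IGKC peak with MIR4436A, a microRNA gene. The HBB peak was paired with 9 symbols, among them the globin genes HBB, HBD, HBG1, HBG2 and HBE1, although no globin gene other than HBB had a peak by the 1 kb rule. The shared RPPH1 and PARP2 peak was paired with 6 symbols, of which TTC5 and CCNB1IP1 are protein-coding neighbours.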

How the data were processed

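One CREB ChIP library and 1 input library of NGP cells were made from 4 ng of DNA each, with amplified fragments of 250 to 450 bp, per the labels' protocols. Bowtie2, MACS2 and build hg38 are named, per the submitters' processing notes; their versions and settings, and how duplicate and multiply mapped reads were handled, were not given in the sources read. The authors deposited a narrowPeak list whose columns give, for every peak, a score, a fold over background (a ratio) and the −log10 of p and of q. The score repeated in the authors' table of peaks near a TSS was not used further. Sequencing depth is unknown. All folds and q values are the authors' own and only describe or rank peaks within this list.

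Gene spans came from RefSeq GRCh38.p14, the same build, on chromosomes 1 to 22 and X (59098 genes). Strand came from the RefSeq promoter table or the authors' table for 28004 genes; for the other 31094 both ends were widened by 1 kb. Fragments k and background b were solved from fold = (k + 1)/(b + 1) and p as a Poisson tail, within 0.001 of the −log10 p, or a relative 1e-05 above 100. This succeeded for 5285 peaks, 5247 with 1 solution, and the 6 peaks described had 1 each. Of 500 simulated peaks 500 were recovered, 497 with 1 solution. They were made with the same formula and Poisson tail, over a narrower range of background than the list. This checks the solving only, not whether the formula holds for the deposited values. Python 3.11.15 and scipy 1.17.1 were used. The genes, the lists, the motifs and the rule for named genes (the 7 genes, every listed gene with a peak, CAMKV and CAMK1D) were chosen with earlier results of these data known. Some genes of the lists are not reported here and were left out of the counts. The pseudogenes, the other small nuclear RNA genes, the genes paired in the authors' table and the comparison of promoters with and without the CREB element were added after values were seen. No test between groups was made, since each group has 1 library.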

Additional observations from a re-analysis of the deposited data

How the results depend on the processing

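The 7 genes kept a peak, and the 6 peaks remained, with a TSS distance of 500 bp or 5 kb, a −log10 q of at least 5 or a fold of at least 10. With the summit in place of the peak edges, 6 genes and 5 peaks were left, HBB being lost because its summit lies past the gene's end. Of the listed relatives, 11 in place of 5 had a peak within 5 kb, and 1, UBB, with the stricter q or with a fold of at least 10. The share of all genes with a peak was 0.602% with the stricter q, 0.171% with a fold of at least 10 and 4.59% among protein-coding genes, against 2.41%. Fragments were recovered in 8 peaks when no count was added to the fold, against 5285 peaks, so the added count is part of the deposited fold. Without it the folds at EEF1A1, IGKC, RNU6-1, HBB, PGK1 and RPPH1/PARP2 would be 2634, 936, 658, 281, 193 and 105, in the same order. Of the 3 promoter windows, 1 held TGACGTCA in 250 or 300 bases, and 2 held TGACG or CGTCA; the longer window and the count by the short motif alone were chosen after seeing the data. No paired analysis was possible because each group has 1 library and no peak list of the input was used.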
